A study of Mus musculus with 17 samples.

Results

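CA1 pyramidal cell markers are represented here by 7 genes, Wfs1, Pou3f1, Fibcd1, Mpped1, Man1a, Gpr161 and Dkk3, out of 55471 genes in a table of read counts from mouse hippocampus. They are a list of names, found by matching the Ensembl identifier of each row to its symbol, with no threshold on their values. All 7 are protein coding genes, all 7 were found, and all 7 received an adjusted p in every comparison. Each library held at least 163 reads of Pou3f1, the member with the fewest counts, and at least 1796 of Dkk3, the member with the most.

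CA1 is the output field of the hippocampus proper, where pyramidal cells receive input from CA3 and project to the subiculum and cortex. Its pyramidal cells are told apart from those of CA3 and from dentate granule cells by genes that they transcribe at higher levels, and the 7 genes above are of this kind. Several of them are also transcribed by neurons outside CA1, such as those of the neocortex. In RNA from a whole hippocampus, a lower level of such a gene can come from fewer CA1 cells or from less RNA per cell, and the counts do not tell these apart.

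The 17 libraries came from C57BL/6 mice aged 3 to 6 months, 1 male animal per library, and held 5831992 to 18735643 counted reads each. CBP-ifKO mice carried Crebbp f/f, the floxed gene of the lysine acetyltransferase CBP, and the Camk2a-creERT2 transgene, whose tamoxifen-dependent recombinase acts in excitatory neurons of the forebrain and leaves a truncated CBP there. Control mice were littermates, and the methods of the study describe them as lacking creERT2 while the labels list the transgene for them too. Both genotypes received 5 administrations of tamoxifen. Animals of the Sal groups had no kindling and were injected with saline. Those of the PTZ0 groups were kindled, that is, given repeated injections of 45 mg/kg of the convulsant pentylenetetrazole (PTZ), and had saline as the last injection. Those of the PTZ45 groups had the same repeated injections, with 45 mg/kg PTZ as the last injection. All hippocampi were taken 45 min after that injection. The study reports that Control mice came to have seizures under the repeated injections, while no CBP-ifKO mouse reached the stage of progressive seizures. Seizure history thus differs with genotype in the PTZ0 and PTZ45 groups. Of the 6 groups, Control PTZ45 comprised 2 libraries and the other groups 3 each.

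The labels of genotype were checked first. Crebbp had 2169 ± 201 normalized counts (SD, n = 8) in Control and 1214 ± 95 (SD, n = 9) in CBP-ifKO libraries, with no overlap, where a normalized count is a read count divided by the DESeq2 size factor of its library. Esr1, the estrogen receptor gene of which creERT2 carries a part, had 57.6 ± 10.9 (41 to 78) in Control and 817.9 ± 90.5 (703 to 941) in CBP-ifKO libraries. These counts go with the methods, in which Control mice lack creERT2. The genotypes thus differ in the transgene as well as in Crebbp. In 5 libraries the genes of the choroid plexus, an epithelium that lies against the hippocampus, summed to 10865 to 44537 normalized counts, against 446 to 1164 in the other 12. These were Control Sal 2, CBP-ifKO Sal 1, Control PTZ0 2, CBP-ifKO PTZ0 3 and CBP-ifKO PTZ45 2, and results are also given without them. By the names of the libraries, Control Sal and Control PTZ0 were sequenced in lane 3, CBP-ifKO Sal and Control PTZ45 in lane 4, and CBP-ifKO PTZ0 and CBP-ifKO PTZ45 in lane 5, so within each treatment genotype and lane cannot be told apart.

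CBP is a coactivator that was named for its binding to CREB, a factor that recognises the cAMP response element, so the promoters of the members were searched for this element. RefSeq windows of 300 bases, from 250 before to 50 after a transcription start, were available for 5 of the 7 genes (7 windows, build GRCm38.p6). The full element reads TGACGTCA on both strands, and its short form, which lies within it, reads TGACG on one strand and thus reads CGTCA on the other. Neither form was in the window of Wfs1. The full element was in none of the 7 windows and in 1.79% of 32851 windows of all genes. The short form was in 2 of the 7 windows, those of Fibcd1 and Man1a, and in 20.8% of all windows. The windows of Wfs1, the member that differed most between genotypes, and of the 2 members with a short form are given in the direction of transcription, with the short form in capitals. They lie at chr5:36988933-36989232, chr2:31845956-31846255 and chr10:54075688-54075987, all on the minus strand.
Wfs1: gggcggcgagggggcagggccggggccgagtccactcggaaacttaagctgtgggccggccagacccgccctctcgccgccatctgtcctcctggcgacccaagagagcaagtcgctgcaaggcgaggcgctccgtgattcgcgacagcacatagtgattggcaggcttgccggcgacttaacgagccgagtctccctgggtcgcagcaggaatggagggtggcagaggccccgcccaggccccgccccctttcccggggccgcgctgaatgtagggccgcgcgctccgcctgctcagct
Fibcd1: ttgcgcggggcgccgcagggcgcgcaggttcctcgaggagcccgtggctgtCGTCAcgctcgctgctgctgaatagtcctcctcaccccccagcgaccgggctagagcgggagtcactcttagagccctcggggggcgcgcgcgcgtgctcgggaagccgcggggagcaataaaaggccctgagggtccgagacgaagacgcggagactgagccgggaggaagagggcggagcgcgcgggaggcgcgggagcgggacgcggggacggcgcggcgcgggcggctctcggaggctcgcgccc
Man1a: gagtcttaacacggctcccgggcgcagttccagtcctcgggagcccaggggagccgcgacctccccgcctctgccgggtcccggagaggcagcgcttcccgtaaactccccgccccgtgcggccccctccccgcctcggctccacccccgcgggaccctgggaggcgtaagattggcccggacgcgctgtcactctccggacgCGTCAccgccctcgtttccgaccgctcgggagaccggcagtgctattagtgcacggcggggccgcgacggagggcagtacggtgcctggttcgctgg
In Fibcd1 the short form began at position -199 and in Man1a at position -47 relative to the transcription start. The windows of these genes were rich in G and C, at 70.0% in Wfs1, 74.3% in Fibcd1 and 72.7% in Man1a, against a median of 52.7% over all windows. The presence or absence of these letters is a description of the windows only.

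Levels of different genes were compared per length, as TPM, in which counts are divided by the gene lengths in the table and scaled to a fixed total per library. In Control libraries Dkk3 was highest at 348 ± 13.9 TPM (SD, n = 8), followed by Mpped1 at 108 ± 9.84 and Fibcd1 at 79.2 ± 9.64. Gpr161 followed at 60 ± 4.46, Wfs1 at 49.1 ± 6.54 and Man1a at 38.9 ± 2.25, and Pou3f1 was lowest at 21.2 ± 2.85. Dkk3, Mpped1 and Pou3f1 were set apart from their neighbours in this order in every Control library, while the libraries of Fibcd1 and Gpr161, of Gpr161 and Wfs1, and of Wfs1 and Man1a overlapped. In CBP-ifKO libraries Wfs1 stood at 24.4 ± 3.23 TPM (SD, n = 9), below Man1a at 33.0 ± 1.66, and the order of the other members was as in Control.

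**Figure D1:**
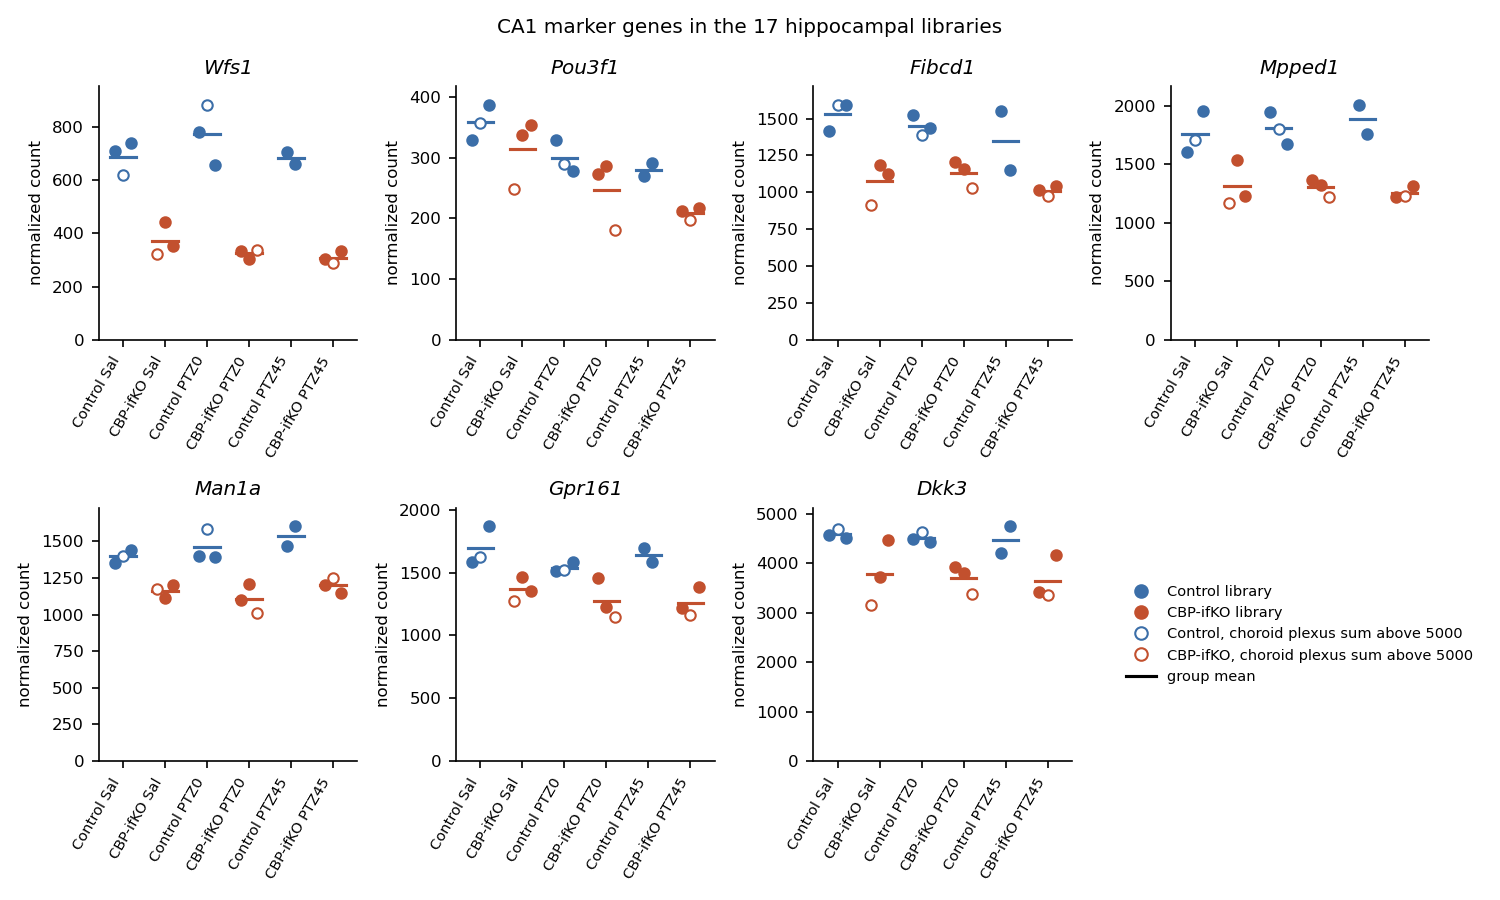
Normalized count (vertical axis, from 0) of each CA1 marker gene in the 17 libraries, by group (horizontal axis). Points are libraries, bars are group means, and open points are the 5 libraries with a choroid plexus sum above 5000. Wfs1 lies between 286.9 and 442 in all CBP-ifKO libraries and between 620.5 and 885.5 in all Control libraries.

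Every member was lower in CBP-ifKO than in Control hippocampi over all treatments, by the Wald test of DESeq2 with treatment as a term. Relative to the Control mean, the CBP-ifKO libraries held 46.5% ± 6.24 (SD, n = 9) of Wfs1, 71.4% ± 6.22 of Mpped1, 73.5% ± 6.95 of Fibcd1, 79.4% ± 4.98 of Man1a and 80.1% ± 7.45 of Gpr161. For Pou3f1 and Dkk3 the values were 81.1% ± 19.4 and 81.9% ± 9.47. All 7 members were called lower (adjusted p under 0.05), where 11.5% of 18682 genes tested were called lower. In 4 of the 7, Wfs1, Mpped1, Man1a and Gpr161, no CBP-ifKO library reached the lowest Control library, which was so for 2.16% of genes tested. Within treatments the genotypes did not overlap in 6 members in Sal and 6 in PTZ0, all but Pou3f1, and in all 7 in PTZ45, where 11.1%, 15.2% and 18.3% of genes tested were lower with no overlap. Within single treatments the members called lower were 4 in Sal, where 1.77% of genes were called lower, 6 in PTZ0, where 5.25% were, and 5 in PTZ45, where 2.82% were. The median log2 fold change over the members was -0.32 in Sal, -0.36 in PTZ0, -0.42 in PTZ45 and -0.34 over all treatments, against -0.00583 to 0.00227 over the 13041 genes whose mean normalized count was 50 or more. These comparisons share libraries, so the call over all treatments is not independent of the other 3.

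**Figure D2:**
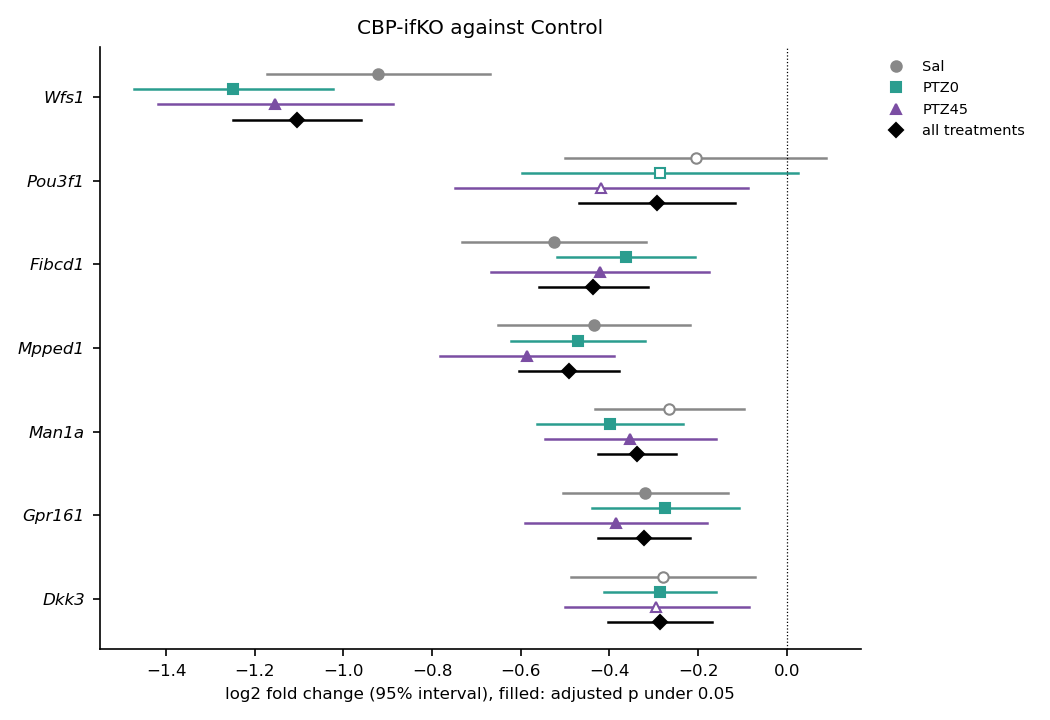
Log2 fold change of CBP-ifKO over Control (horizontal axis, bars are 95% intervals) of each member in Sal, PTZ0 and PTZ45 and over all treatments. Filled symbols mark an adjusted p under 0.05. All values are below 0 and those of Wfs1, from -1.248 to -0.92, lie farthest from it.

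Among the members of the secretory pathway, Wfs1 (ENSMUSG00000039474, chr5:36966104-36989205 in GRCm38, minus strand) encodes wolframin, a membrane protein of the endoplasmic reticulum that is mutated in Wolfram syndrome. It had 709.8, 620.5 and 740.4 normalized counts in Control Sal and 322.8, 442 and 352.5 in CBP-ifKO Sal. In PTZ0 it had 781.2, 885.5 and 658.9 in Control and 333.6, 304.5 and 339.1 in CBP-ifKO. In PTZ45 it had 707.5 and 663.8 in Control and 302.8, 286.9 and 334.9 in CBP-ifKO. The highest CBP-ifKO library was thus lower than the lowest Control library of any treatment. The log2 fold change was -0.92 ± 0.13 (SE) in Sal, -1.248 ± 0.11 in PTZ0 and -1.15 ± 0.14 in PTZ45, with adjusted p of 1.15e-09, 3.15e-24 and 5.09e-15. Across the treatments together it was -1.11 ± 0.07 (adjusted p = 7.8e-48), and 0.161% of the 13041 genes whose mean was 50 or more had a lower value.

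Wfs1 was also lower relative to the other members. The log2 ratio of Wfs1 to the geometric mean of the other 6 members was -1.002 ± 0.166 (SD, n = 8) in Control and -1.74 ± 0.145 (SD, n = 9) in CBP-ifKO libraries. The ratio was -1.50 in the highest CBP-ifKO library, below every Control library. The same ratio of Mpped1 was 0.55 ± 0.106 in Control and 0.53 ± 0.101 in CBP-ifKO, and that of Fibcd1 was 0.18 ± 0.152 and 0.22 ± 0.0945, and the genotypes overlapped in both. Each of these ratios has Wfs1 among its denominators, which raises it in CBP-ifKO. In the other 4 it went from -2.39 to -2.22 in Pou3f1, 0.19 to 0.35 in Man1a, 0.37 to 0.54 in Gpr161 and 2.10 to 2.31 in Dkk3, with overlap in each. No test was made of these ratios.

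Man1a (ENSMUSG00000003746, chr10:53904785-54076609, minus strand) encodes a mannosidase of the Golgi that trims N-linked glycans. It ran from 1352.6 to 1603.7 normalized counts in the 8 Control libraries and from 1012.5 to 1250.5 in the 9 CBP-ifKO libraries. The genotypes did not overlap in any treatment. CBP-ifKO over Control gave log2 fold changes of -0.40 ± 0.08 in PTZ0 (adjusted p = 0.000166) and -0.35 ± 0.10 in PTZ45 (adjusted p = 0.0159), and in Sal it was -0.26 ± 0.09, which was not called by DESeq2 (adjusted p = 0.0818) but was by edgeR (adjusted p = 0.0452). The call in PTZ45 was lost under 8 of 13 alternatives. With all treatments in the fit the value was -0.34 ± 0.04 (adjusted p = 4.65e-12).

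Of the members at the cell surface, Fibcd1 (ENSMUSG00000026841, chr2:31813290-31846005, minus strand) encodes a membrane receptor with a fibrinogen-like domain that binds acetylated sugars. It had 1417, 1595 and 1594 normalized counts in Control Sal and 915.4, 1183 and 1126 in CBP-ifKO Sal. In PTZ0 it had 1528, 1388 and 1439.7 in Control and 1207, 1161 and 1029 in CBP-ifKO. In PTZ45 it had 1551 and 1148 in Control and 1013, 971.6 and 1039.9 in CBP-ifKO. The genotypes did not overlap within any treatment, but the second Control PTZ45 library was lower than 3 CBP-ifKO libraries of other treatments. On the log2 scale the difference was -0.53 ± 0.11 in Sal (adjusted p = 0.000155), -0.36 ± 0.08 in PTZ0 (adjusted p = 0.000315) and -0.42 ± 0.12 in PTZ45 (adjusted p = 0.0296), and the call in PTZ45 was lost under 8 of 13 alternatives. Over all treatments the difference was -0.44 ± 0.06 (adjusted p = 3.17e-10).

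Gpr161 (ENSMUSG00000040836, chr1:165295789-165326745, plus strand) encodes an orphan G protein-coupled receptor of the primary cilium that restrains Hedgehog signalling. It ran from 1509.8 to 1868 normalized counts in Control and from 1143 to 1465 in CBP-ifKO libraries, with no overlap. By DESeq2 the log2 fold change was -0.32 ± 0.10 in Sal (adjusted p = 0.0419), -0.27 ± 0.08 in PTZ0 (adjusted p = 0.0247) and -0.39 ± 0.10 in PTZ45 (adjusted p = 0.0119). These 3 calls were lost under 8 of 14, 9 of 14 and 7 of 13 alternatives. Across the treatments together it was -0.32 ± 0.05 (adjusted p = 6.97e-08), and that call was lost under 3 of 26.

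Dkk3 (ENSMUSG00000030772, chr7:112116017-112159057, minus strand) encodes a secreted glycoprotein of the Dickkopf family. It was the most abundant member and the steadiest among Control libraries, which ran from 4208 to 4749 normalized counts, while CBP-ifKO libraries ran from 3166 to 4478. Within each treatment the genotypes did not overlap, although the third CBP-ifKO Sal library, at 4478, lay just under the lowest library of its Control group, at 4503. Its log2 fold change was -0.28 ± 0.11 in Sal, -0.29 ± 0.06 in PTZ0 and -0.29 ± 0.11 in PTZ45, and of these the value in PTZ0 was called by DESeq2 (adjusted p = 0.192, 0.000508 and 0.118), while edgeR called all 3 (adjusted p = 0.0354, 0.0027 and 0.0384). With all treatments in the fit it was -0.28 ± 0.06 (adjusted p = 4.06e-05).

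Mpped1 (ENSMUSG00000041708, chr15:83779467-83858494, plus strand) encodes a protein with a metallophosphoesterase domain and, after Wfs1, showed the largest difference between genotypes over all treatments. It had 1607, 1703 and 1956 normalized counts in Control Sal and 1167, 1538 and 1229.7 in CBP-ifKO Sal. In PTZ0 it had 1946, 1800.2 and 1667 in Control and 1366, 1322 and 1221 in CBP-ifKO. In PTZ45 it had 2007 and 1760.1 in Control and 1222, 1228 and 1314 in CBP-ifKO. No CBP-ifKO library reached any Control library. Its difference on the log2 scale was -0.43 ± 0.11 in Sal (adjusted p = 0.00777), -0.47 ± 0.08 in PTZ0 (adjusted p = 1.8e-07) and -0.59 ± 0.10 in PTZ45 (adjusted p = 9.59e-07), and the call in Sal was lost under 6 of 14 alternatives. Over all treatments the difference was -0.49 ± 0.06 (adjusted p = 3.58e-15).

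Pou3f1 (ENSMUSG00000090125, chr4:124656807-124660655, plus strand), the transcription factor among the members, encodes a POU domain protein also known as Oct6 or SCIP. It had 329.6, 358.3 and 387.8 normalized counts in Control Sal and 249.2, 338.2 and 354.7 in CBP-ifKO Sal. In PTZ0 it had 329.2, 290.5 and 279 in Control and 272.7, 287.4 and 181.4 in CBP-ifKO. In PTZ45 it had 269.7 and 291.2 in Control and 212.4, 197.9 and 218.1 in CBP-ifKO. The genotypes overlapped in Sal and PTZ0, and the lowest CBP-ifKO library of each of these groups was one of the 5 with choroid plexus RNA. The log2 fold change was -0.20 ± 0.15 in Sal, -0.29 ± 0.16 in PTZ0 and -0.42 ± 0.17 in PTZ45, none of them called (adjusted p = 0.735, 0.343 and 0.209). Across the treatments together it was -0.29 ± 0.09 and was called (adjusted p = 0.00942), but without the 5 libraries it was -0.17 ± 0.09 (adjusted p = 0.187) and with a correction for GC content -0.17 ± 0.07 (adjusted p = 0.102).

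Kindling and the last PTZ injection were then compared within each genotype. No member was called by DESeq2 in any of the 6 treatment comparisons. The share of genes called in either direction was 1.17% in Control and 0.294% in CBP-ifKO for PTZ45 against Sal, 0.00843% and 0.0112% for PTZ0 against Sal, and 1.25% and 0.0872% for PTZ45 against PTZ0. At an unadjusted p under 0.05 the member count was 1, Pou3f1 and lower, for PTZ45 against Sal in both genotypes and for PTZ0 against Sal in Control, where 7.66%, 4.33% and 0.581% of genes had such a p. It was 0 in the other 3, where 0.336% (PTZ0 against Sal in CBP-ifKO), 8.3% and 2.12% (PTZ45 against PTZ0 in Control and CBP-ifKO) did. By the quasi-likelihood test of edgeR, Pou3f1 was called for PTZ45 against Sal in CBP-ifKO, where 0.611% of genes were called. edgeR called no member in the same comparison in Control (1.73% of genes), for PTZ0 against Sal in Control (0.239%) and CBP-ifKO (0.0588%), or for PTZ45 against PTZ0 in Control (2.22%) and CBP-ifKO (0.286%). Comparisons within a genotype share their libraries.

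Mean Pou3f1 counts were 358.6 ± 29.1 (SD, n = 3) in Control Sal, 299.5 ± 26.3 (n = 3) in Control PTZ0 and 280.5 ± 15.2 (n = 2) in Control PTZ45. In CBP-ifKO they were 314 ± 56.8, 247.1 ± 57.4 and 209.5 ± 10.4 (n = 3 each). All 3 CBP-ifKO PTZ45 libraries were lower than all 3 CBP-ifKO Sal libraries, as was so for 6.16% of genes tested. In Control the PTZ45 libraries and the PTZ0 libraries were likewise all lower than the Sal libraries, as was so for 15.6% and 3.78% of genes tested. The log2 fold change of PTZ45 over Sal was -0.58 ± 0.16 in CBP-ifKO (DESeq2 adjusted p = 0.112, edgeR adjusted p = 0.00309, and 0.00309 to 1 over the alternatives) and -0.36 ± 0.15 in Control (DESeq2 adjusted p = 0.407). With a correction for GC content, which is 63.9% in Pou3f1, these were -0.23 and -0.096 (adjusted p = 1 in both), and over the alternatives they ran from -0.732 to -0.23 and from -0.449 to -0.096. Groups compared here were sequenced in different lanes in both genotypes. Within 1 lane, Pou3f1 differed by -0.26 ± 0.12 for PTZ0 against Sal in Control (adjusted p = 1) and by -0.23 ± 0.17 for PTZ45 against PTZ0 in CBP-ifKO (adjusted p = 1).

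None of the other members had an unadjusted p under 0.05 in these comparisons. For PTZ45 against Sal the log2 fold changes of the 6 members other than Pou3f1 ran from -0.19 (Fibcd1) to 0.13 (Man1a) in Control and from -0.26 (Wfs1) to 0.04 (Man1a) in CBP-ifKO. The 95% intervals of Dkk3, -0.20 to 0.12 in Control and -0.29 to 0.17 in CBP-ifKO, and of Wfs1, -0.245 to 0.22 and -0.54 to 0.03, give the sizes of change that these libraries leave possible. The log2 fold change of Wfs1 for PTZ0 over Sal was 0.16 ± 0.10 in Control and -0.17 ± 0.14 in CBP-ifKO. The difference between these effects, the genotype by PTZ0 interaction, was -0.33 ± 0.18 and was not called (adjusted p = 1). No member was called in this interaction, in which 0% of genes were called, or in the genotype by PTZ45 interaction, in which 0.329% were, and none had an unadjusted p under 0.05 in either, where 0.37% and 1.76% of genes had. edgeR called no member in the PTZ0 (0.123% of genes) or the PTZ45 interaction (0.32%).

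**Figure D3:**
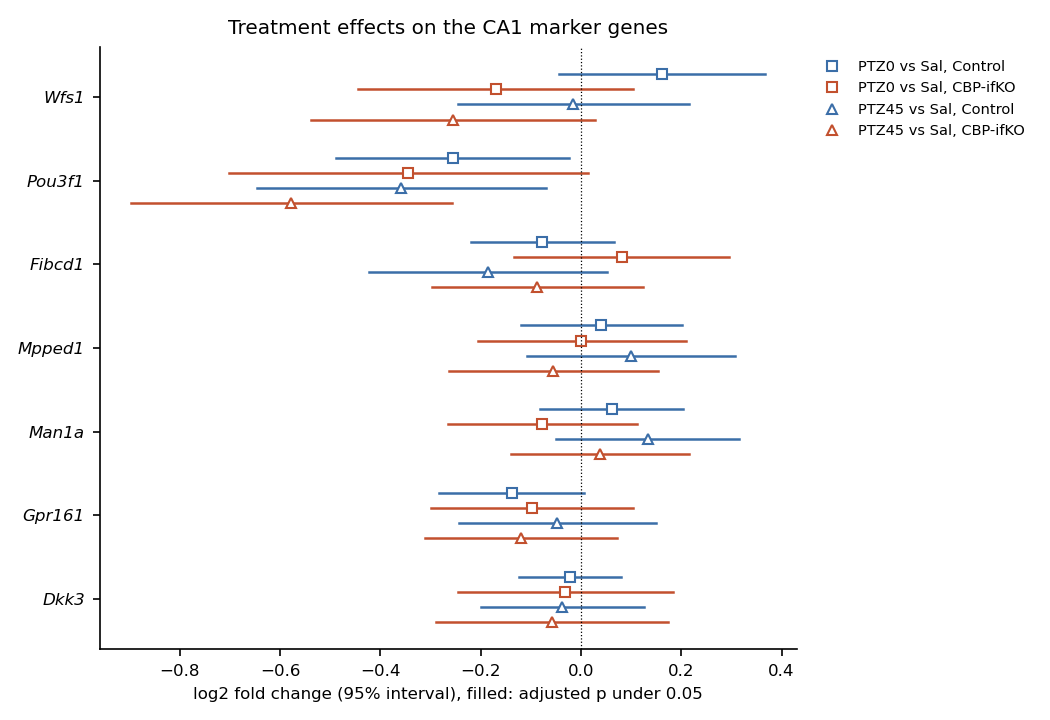
Log2 fold change (horizontal axis, bars are 95% intervals) of PTZ0 and PTZ45 over Sal for each member in Control and CBP-ifKO. No symbol is filled, as no adjusted p was under 0.05, and Pou3f1 in CBP-ifKO PTZ45, at -0.58, lies farthest from 0.

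The members were set beside lists of genes for other cells of the hippocampus, each list averaged per library on the log2 scale relative to its Control mean. The 7 members averaged -0.47 in CBP-ifKO (libraries from -0.62 to -0.28), against -0.08 to 0.11 in Control libraries. A list of 6 other CA1-enriched genes averaged -0.34 (-0.44 to -0.13) and 8 genes of dentate granule cells -0.38 (-0.59 to -0.17). Lists of CA3 and CA2 pyramidal cells averaged -0.15 (-0.36 to 0.03) and -0.19 (-0.39 to -0.03). The 10 genes of neurons in general averaged -0.23 (-0.36 to -0.11), and those of interneurons -0.12 (-0.21 to -0.02). Astrocyte, oligodendrocyte, microglia and endothelial lists averaged from -0.13 to -0.06, and their CBP-ifKO libraries lay on both sides of 0. Excitatory neuron, subiculum and neocortex lists averaged -0.15, -0.10 and -0.28. The mean of the members includes Wfs1, whose log2 fold change over all treatments was -1.11, while the other 6 ran from -0.49 to -0.285. By the median log2 fold change, the members were at -0.34, other CA1-enriched genes at -0.32 and dentate granule cell genes at -0.28. Differences between lists were not tested.

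**Figure D4:**
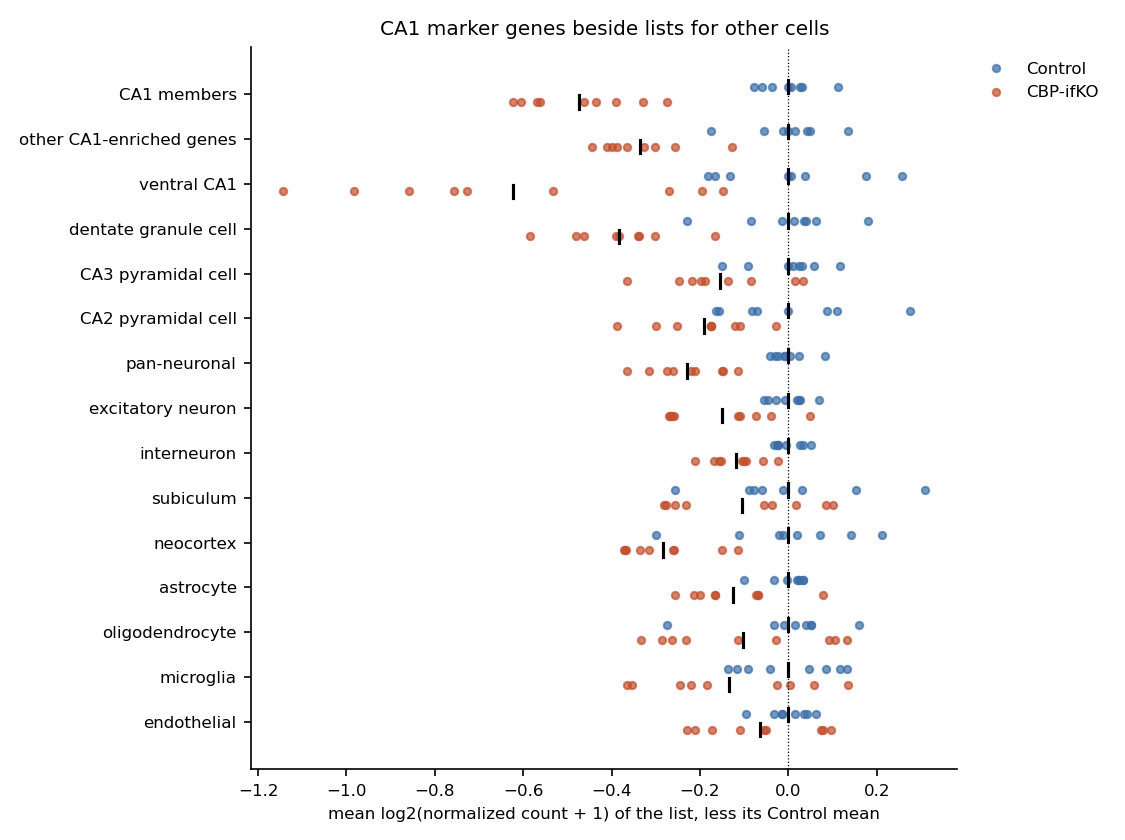
Mean log2(normalized count + 1) of each list of genes less the mean of the list over Control libraries (horizontal axis), for 8 Control and 9 CBP-ifKO libraries (points), with genotype means (bars). The CBP-ifKO libraries of the CA1 members lie from -0.62 to -0.28, and those of the pan-neuronal list from -0.36 to -0.11.

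Over all treatments 5 of the 6 other CA1-enriched genes were called lower, where 11.5% of all genes tested were. Spink8, a protease inhibitor of the Kazal type, fell from 182 ± 17.5 to 121 ± 17.1 normalized counts (log2 fold change -0.55 ± 0.08, adjusted p = 3.99e-09). Crym, which encodes the thyroid hormone-binding mu-crystallin, fell from 2300 ± 333 to 1760 ± 121 (-0.36 ± 0.07, adjusted p = 4.83e-06). Lefty1, a secreted inhibitor of Nodal signalling, fell from 65.9 ± 17.8 to 46.7 ± 11.4 (-0.43 ± 0.14, adjusted p = 0.0204), and Ndst4, a heparan sulfate sulfotransferase, from 1080 ± 61.7 to 889 ± 64.1 (-0.28 ± 0.05, adjusted p = 1.74e-07). The list median was -0.32, close to the -0.34 of the members.

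The other lists are to be read against the 11.5% of all genes called lower and 7.76% called higher over all treatments. Of the 10 pan-neuronal genes 9 were called lower, among them Nefl, a neurofilament subunit (-0.40 ± 0.05, adjusted p = 5.4e-14), and Rbfox3, the gene of NeuN (-0.31 ± 0.06, adjusted p = 1.41e-05). Of the 8 dentate granule cell genes 5 were called lower, with C1ql2 at -1.66 ± 0.10 (adjusted p = 2.02e-59), and 2 higher, with Lct at 0.75 ± 0.09 (adjusted p = 8.45e-15). The CA3 list had 2 of 5 genes called lower, Grik4 at -0.18 and Trps1 at -0.10, and the CA2 list 2 of 5 lower and 1 higher, Map3k15 at 0.67 ± 0.23 (adjusted p = 0.0239). In CA2 Rgs14, a regulator of G protein signalling, was at -1.09 ± 0.08 (adjusted p = 2.25e-43), close to the -1.11 of Wfs1. The excitatory neuron list had 4 of 8 genes called lower and 1 higher, the interneuron list 3 of 8 lower and the neocortex list 1 of 7 lower, the last close to the share of all genes. In the lists of other cells, 3 of 6 astrocyte genes were called lower, Aldoc at -0.24 ± 0.06, Slc1a3 at -0.17 ± 0.03 and Gja1 at -0.11 ± 0.04 (adjusted p = 0.000408, 1.01e-05 and 0.0454), and 1 of 7 endothelial genes, Ly6c1 at -0.29 ± 0.10 (adjusted p = 0.0286). All 6 astrocyte, all 7 microglia, 7 of 8 oligodendrocyte and 3 of 7 endothelial genes had a value below 0, beside 49.5% of the 13041 genes whose mean was 50 or more. The part of these cells in the members' difference was not tested.

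Because the pan-neuronal genes were lower, the genotypes were compared again with size factors computed over these 10 genes alone, which asks whether a member fell by more than they did. This scaling moved the median of all genes by 0.21 to 0.25. Over all treatments 4 members were called lower, Wfs1 at -0.89 ± 0.07, Mpped1 at -0.28 ± 0.06, Fibcd1 at -0.23 ± 0.06 and Man1a at -0.12 ± 0.05, where 2.12% of genes were called lower. The adjusted p were 4.37e-30, 1.05e-05, 0.00127 and 0.0217. Gpr161, Pou3f1 and Dkk3 were at -0.11, -0.09 and -0.08 and were not called (adjusted p = 0.0576, 0.355 and 0.115). Per library, the mean of the members, Wfs1 included, less that of the pan-neuronal list was 0.00 ± 0.08 (SD, n = 8) in Control and -0.24 ± 0.10 (SD, n = 9) in CBP-ifKO. The ranges, -0.14 to 0.14 and -0.35 to -0.06, overlapped. Within each treatment they did not overlap, with Control libraries at or above -0.008 in Sal, -0.036 in PTZ0 and -0.143 in PTZ45 and CBP-ifKO libraries at or below -0.055, -0.18 and -0.309. Within treatments the members called under this scaling were Wfs1 and Fibcd1 in Sal, where 0.746% of genes were called lower, Wfs1, Mpped1 and Man1a in PTZ0, where 1.36% were, and Wfs1 and Mpped1 in PTZ45, where 1.04% were.

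The 5 libraries with choroid plexus RNA were then left out. Over all treatments 6 members were called lower in the remaining 12 libraries, all but Pou3f1, where 7.86% of genes were. Wfs1 was at 710.3 ± 46.4 normalized counts in Control and 345 ± 51.2 in CBP-ifKO libraries (SD, n = 6 each), a log2 fold change of -1.06 ± 0.08. Mpped1 was at -0.46 ± 0.07, Fibcd1 at -0.37 ± 0.07, Man1a at -0.31 ± 0.05, Gpr161 at -0.28 ± 0.06 and Dkk3 at -0.20 ± 0.06. Within treatments, with 2 libraries in each group, the calls were Wfs1 in Sal (0.419% of genes called lower) and Wfs1 and Mpped1 in PTZ0 (0.906%) and PTZ45 (1.32%). The part of the choroid plexus RNA in the remaining differences was not tested.

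Lane was examined in a pair of ways. Within lane 4, CBP-ifKO Sal and Control PTZ45 libraries differ in genotype and treatment, and 3 members were called lower there, where 3.05% of genes were. Wfs1 was at -0.91 ± 0.15 (adjusted p = 4.57e-07), Mpped1 at -0.53 ± 0.13 (adjusted p = 0.00183) and Man1a at -0.40 ± 0.11 (adjusted p = 0.0102). Fibcd1, Gpr161 and Dkk3 were at -0.34, -0.27 and -0.24 and were not called, and Pou3f1 was at 0.15 ± 0.19. With lane and treatment both as terms over the 17 libraries, Wfs1 was at -0.83 ± 0.22 and was the 1 member called (adjusted p = 0.0204), where 0.844% of genes were called lower. In that fit the other 6 members were all below 0, from -0.58 (Fibcd1) to -0.22 (Man1a). Each group lay in 1 lane, so the fit separates genotype from lane only if the genotype difference is the same in every treatment. These libraries cannot tell whether it is, as a difference between treatments and one between lanes look alike here.

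**Figure D5:**
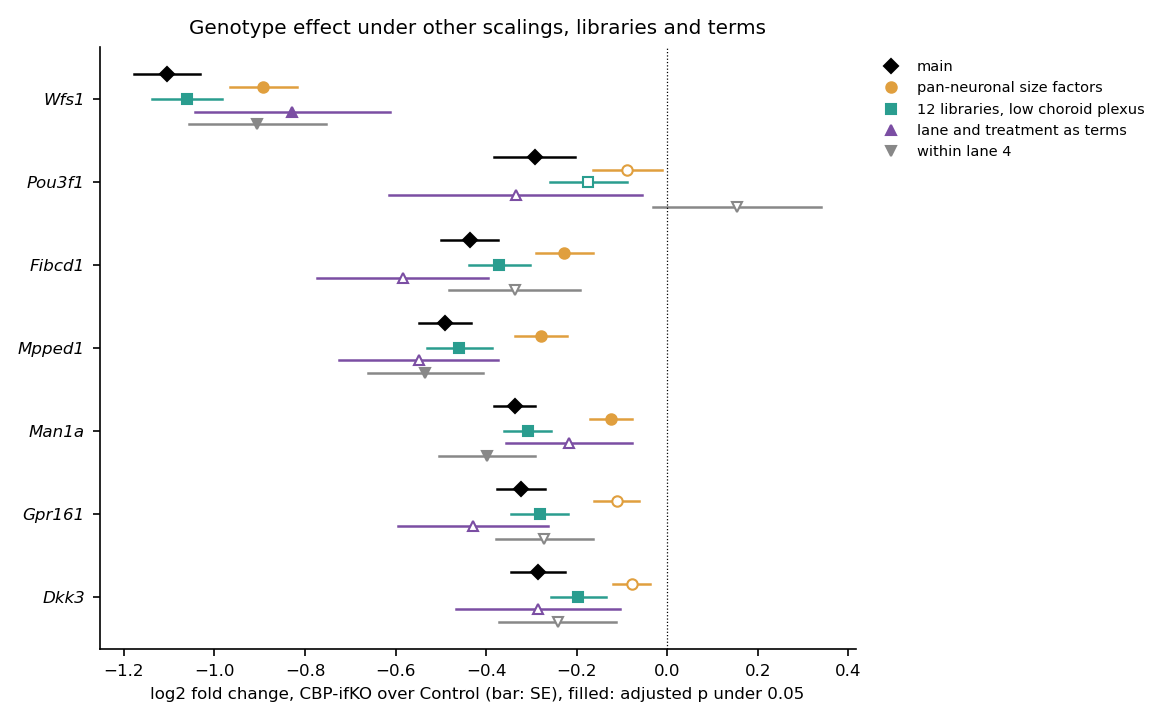
Log2 fold change of CBP-ifKO over Control (horizontal axis, bars are SE) for each member. Over all treatments it is shown as reported, with pan-neuronal size factors, without the 5 libraries with choroid plexus and with lane as a term. The points within lane 4 compare CBP-ifKO Sal with Control PTZ45, which differ in treatment too. Filled symbols mark an adjusted p under 0.05. Wfs1 is filled in all 5 and lies from -1.11 to -0.83, and Pou3f1 lies above 0 within lane 4.

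Within groups, the members did not all move together from library to library. After subtraction of group means, the correlation of 21 pairs of members over the 17 libraries, in which the members of a pair share the depth and dissection of each library, had a median r of 0.42 and ran from -0.17 (Fibcd1 and Man1a) to 0.75 (Fibcd1 and Mpped1). Pou3f1 and Dkk3 had an r of 0.68, as had Wfs1 and Mpped1. Man1a stood apart, with an r below 0 with Wfs1, Fibcd1, Mpped1 and Gpr161, and an r of 0.42 with Pou3f1 and 0.21 with Dkk3. The 6 choroid plexus genes with a mean of 50 or more had an r from -0.71 (Kcnj13) to -0.57 (Kl) with the mean of the members after the same subtraction, both genes being named after their values were seen. In each CBP-ifKO group the library with choroid plexus RNA had the lowest average of the members on the log2 scale relative to Control, at -0.563 in Sal 1, -0.624 in PTZ0 3 and -0.605 in PTZ45 2, while in Control Sal and Control PTZ0 it was not the lowest. The part of choroid plexus RNA in these correlations was not tested.

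The genes most like the members were sought by correlation with their mean z-score over the 17 libraries, among 13034 other genes whose mean was 50 or more. They were Cabp1 (r = 0.973), a neuronal calcium-binding protein, Camkk2 (r = 0.966), a kinase that activates calmodulin-dependent kinases, Ajap1 (r = 0.966), Ppp1r9b (r = 0.964), the spine protein spinophilin, and Rgs14 (r = 0.961). Camkk2 went from 1592 to 1000 normalized counts between Control and CBP-ifKO. The mean of the members itself separates the genotypes, so that these genes were also lower in CBP-ifKO, with log2 fold changes from -1.09 (Rgs14) to -0.38 (Ppp1r9b), was fixed by how they were picked. After subtraction of group means the highest were Tmem151a (r = 0.956), Kif3c (r = 0.912), Eef1a2 (r = 0.907), Nrgn (r = 0.901) and Cox18 (r = 0.899). Of these Eef1a2 and Nrgn were called lower in CBP-ifKO, at -0.16 ± 0.04 and -0.37 ± 0.06 (adjusted p = 0.00179 and 6.66e-08). Tmem151a, Kif3c and Cox18 were at -0.16, -0.09 and 0.12 and were not called (adjusted p = 0.0568, 0.104 and 0.395).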

How the data were processed

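RNA-seq of total RNA from mouse hippocampus was read as single 50 nt ends. Per the submitters' processing notes and the study's methods, the authors trimmed reads with Trim Galore 0.6.4 after FastQC 0.11.8, aligned them with STAR 2.6.1 to mm10 (GRCm38), kept reads with a mapping quality above 10 and counted them over Ensembl exons with Rsubread. The deposited values are raw counts per gene, and whether strand was used is not given in the sources used here. The table held 18 columns of counts, of which 1 matched no sample and was not used.

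Genes with at least 1 count (39260) were tested with the Wald test of DESeq2 1.42.0 (two-sided, Benjamini-Hochberg adjustment over all genes tested, threshold 0.05) in R 4.3.3, on the libraries of each comparison. The tests were checked on simulated counts. Normalized counts are counts over DESeq2 size factors, and TPM used the lengths in the table. Alternatives were edgeR 4.0.16, TMM or pan-neuronal size factors, a filter on low counts, the replicate number as a block, a correction for GC content, 1 fit of all libraries, lane as a term and each library left out. Labels say each library is 1 animal.

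The members and the lists of other cells were chosen with earlier results of these data known. Genes named are the members, Crebbp and Esr1, at most 4 called genes of each list per comparison with the largest change, and the 5 genes most like the members by each measure of likeness, and a gene named outside this rule is said to be so. Intervals are 95% Wald intervals.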

Additional observations from a re-analysis of the deposited data

How the results depend on the processing

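All 7 members kept a log2 fold change below 0 for CBP-ifKO against Control over all treatments under every alternative run over the 17 libraries, and Wfs1 kept its call in each genotype comparison under each alternative. Within lane 4, where CBP-ifKO Sal is compared with Control PTZ45 and treatment differs too, Pou3f1 was at 0.15 (DESeq2 adjusted p = 0.836). Of the 7 members called over all treatments, 4 were called with pan-neuronal size factors, 1 with lane and treatment as terms and 3 within lane 4. Leaving out each library gave 7 to 7. The share of all genes called is not given for any fit with a library left out. There a loss among the members cannot be told from a loss of calls in general. By edgeR the count was 6 in each of Sal, PTZ0 and PTZ45 (1.46%, 2.44% and 2.23% of all genes called lower), and in 1 fit of all 17 libraries it was 5, 4 and 5 (3.45%, 3.72% and 3.94%). In Sal (4 members called) it was 2 with pan-neuronal size factors, 2 with the replicate block (0.822% of all genes called lower) and 1 without the 5 libraries with choroid plexus. It ran from 2 to 6 with a library left out, and was 2 without Control Sal 2, Control Sal 3 or CBP-ifKO Sal 1. In PTZ0 (6 called) it was 3 with pan-neuronal size factors, 2 without the 5 libraries, and 5 to 6 with a library left out. In PTZ45 (5 called) it was 2 with pan-neuronal size factors, 2 with the replicate block (0.721% of all genes) and 2 without the 5 libraries. It ran from 2 to 4 with a CBP-ifKO library left out, and was 2 without CBP-ifKO PTZ45 1 or CBP-ifKO PTZ45 2. Counts without either Control PTZ45 library are not given, as a lone library would stand for that group. For PTZ45 against Sal in CBP-ifKO (0 called) Pou3f1 was called by edgeR, where 0.611% of all genes were called. It was also called in 1 fit of all 17 libraries, for which the share of all genes is not given. With a library left out the count ran from 0 to 1, being 1 without CBP-ifKO Sal 1. For PTZ45 against PTZ0 in Control (0 called) it was 0 with any Control PTZ0 library left out. The cause of these changes in count was not tested. Deviations of libraries with the same replicate number had an r from -0.52 to 0.48, below 0 for every genotype pair but 1 and above 0 for the Control pairs of PTZ0 with Sal (0.09 to 0.41) and with PTZ45 (0.11 and 0.17), so the numbers were not taken to pair animals. Numbers are those of the sample titles, and the library name of Control PTZ45 2 carries the number 3. Leaving out the 5 libraries and the comparison within lane 4 were chosen after seeing the data. Among the other values of members, 1237 kept their direction and side of the threshold, 67 lost and 11 gained a call.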

Other observations

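A list of 5 genes of ventral CA1, where the hippocampus projects to amygdala and prefrontal cortex, was lower in CBP-ifKO by a median log2 fold change of -0.62 over all treatments, with 4 genes called lower by DESeq2, where 11.5% of all genes tested were. Averaged per library on the log2 scale relative to Control, the list stood at -0.147, -0.196 and -0.269 in the 3 CBP-ifKO libraries with choroid plexus RNA and from -1.143 to -0.533 in the other 6, while Control libraries ran from -0.182 to 0.258. After subtraction of group means, the 5 genes had an r with the mean of the members from -0.776 (Gpc3) to -0.375 (Grp). Within groups the list thus did not move with the members. The part of choroid plexus RNA or of other dissected tissue in this was not tested. Grp, which encodes gastrin-releasing peptide, went from 195 ± 21.7 normalized counts (SD, n = 8) in Control to 83.9 ± 10.2 (SD, n = 9) in CBP-ifKO libraries (-1.22 ± 0.10, adjusted p = 4.99e-34). Col5a1, a collagen chain, was at -0.62 ± 0.11 (adjusted p = 5.95e-07), Dcn, the proteoglycan decorin, at -0.71 ± 0.21 (adjusted p = 0.00535) and Gpc3, a glypican, at -0.48 ± 0.15 (adjusted p = 0.0122). Htr2c, named after its values were seen and also transcribed by the choroid plexus, was at 0.16 ± 0.32 (adjusted p = 0.784).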
